A study of Mus musculus with 4 samples.

Results

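The CD209 lectins are a family of sugar-binding receptors, and 5 of its mouse genes are described here: Cd209a, Cd209b, Cd209d, Cd209f and Cd209g. They were taken by symbol from the 32285 genes of the matrices, which list 7 Cd209 genes in all. The study sorted live macrophages (CD45+, CD11b+, CD64+ and negative for a lineage stain) from the perigonadal white adipose tissue (gWAT) of mice for single-cell RNA sequencing with 10x Genomics Chromium 3′ chemistry. It holds 4 libraries, 1 per group: WT mice on a high-fat diet (WT HFD), BLIMP1 conditional knockout mice on that diet (CKO HFD), and both genotypes on a normal diet (WT ND and CKO ND). Values given as a series of 4 follow that order. BLIMP1 is a transcriptional repressor encoded by Prdm1. Neither the age, sex and number of animals behind a library nor the allele, driver and deleted exons of the knockout are stated in the sources at hand. Group and library cannot be told apart, so no test across libraries was possible, no p-value is given, and every interval is a 95% interval for counting error only.

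CD209 proteins are C-type lectin receptors of the cell surface: their carbohydrate recognition domain binds mannose- and fucose-rich sugars in a calcium-dependent way, and they capture microbes and glycoproteins for uptake. Humans have a single DC-SIGN gene with a close relative, whereas the mouse locus has expanded into a set of paralogues. Cd209a, the paralogue named mouse DC-SIGN, is used as a marker of type 2 conventional and monocyte-derived dendritic cells. Cd209b encodes the receptor by which marginal zone macrophages of the mouse spleen take up bacterial polysaccharide. Cd209d encodes a receptor of mouse myeloid cells that has been tied to the response to mycobacteria. The question followed here was which paralogue Lyve1+ macrophages, Flt3+ dendritic cells and other cells of fat carry in each group.

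After filtering, 4650, 8731, 3705 and 4302 cells of the 4 libraries were kept. The WT HFD library stood apart in depth, with a median of 14492 UMIs (unique molecular identifiers, each a counted RNA molecule) per cell against 3923 to 4092 in the others. Shares of cells were therefore read after every cell had been thinned to 2000 UMIs, which left out 67 to 1076 shallower cells per library. Levels are CPM, the UMIs of a gene per 1000000 summed UMIs of a group of cells. A 3′ UMI counts 1 tag per molecule, so levels were not divided by gene length. Prdm1 stood at 21.9, 22.9, 22.9 and 28.4 CPM in WT HFD, CKO HFD, WT ND and CKO ND. It was not lower in CKO. Since 3′ tags can lie beyond the deleted exons, this level does not check the deletion. Between 2 and 9 cell barcodes were shared by any pair of libraries.

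Cells with a Lyve1 UMI and no Flt3 UMI after thinning are called Lyve1 cells, and cells with a Flt3 UMI and no Lyve1 UMI are called Flt3 cells. Lyve1 is a hyaluronan receptor of perivascular resident macrophages, and Flt3 is the growth factor receptor of conventional dendritic cells. There were 250, 1074, 421 and 726 Lyve1 cells in WT HFD, CKO HFD, WT ND and CKO ND, and 33, 34, 116 and 109 Flt3 cells. Cells with both genes numbered 0, 1, 4 and 8 and were set apart. All 10 markers on the resident macrophage list stood over 1.5-fold above the other cells in the Lyve1 cells of every library, although Lyve1 itself is on that list. In the Flt3 cells 6 to 8 of 10 dendritic markers did so, Flt3 included. The Flt3 cells were of mixed kind: 6 to 7 of 7 type 1 dendritic markers, 4 to 7 of 7 type 2 dendritic markers and 3 to 5 of 5 mature dendritic markers did so. In Lyve1 cells 0 to 2 type 1, 2 to 4 type 2 and 0 mature dendritic markers did, while none of the fibroblast or of the T and NK cell markers did in either. C1qa, a complement gene of macrophages, stood at 2046 to 4334 CPM in Lyve1 cells and at 169 to 875 CPM in Flt3 cells. Fcgr1, the gene of the CD64 used in the sort, stood at 40.8 to 82.5 CPM in Lyve1 cells and at 12.7 to 35.0 CPM in Flt3 cells. The sort can set how many Flt3 cells are seen. Not all of them grouped with dendritic cells in the clusters described below. Of the Flt3 cells of the 4 libraries, 54.8% lay in dendritic-like cluster 16 and 9.93% in mature dendritic-like cluster 20. The rest lay in other clusters, with 10.3% in dividing-like cluster 4 and 7.53% and 7.19% in unnamed clusters 1 and 14. Values of Flt3 cells are thus those of a gate, not of dendritic cells alone. Reading a gate at 2000 UMIs also misses cells: a Lyve1 UMI was found in 12.4% to 29.8% of all kept cells without thinning, while Lyve1 cells made up 5.45% to 20.9%.

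Lyve1 cells carried all 5 paralogues, with Cd209f at the highest level in every library. Cd209f stood at 269.9 CPM (254 to 286) for WT HFD, 237 CPM (224 to 251) for CKO HFD, 314 CPM (293 to 336) for WT ND and 251 CPM (236 to 267) for CKO ND. Cd209d followed at 201, 161, 166 and 204 CPM in the same order of libraries. Cd209g stood at 95.4, 113, 166 and 126 CPM. In WT ND the levels of Cd209d and Cd209g were the same, with intervals of 151 to 182 CPM for each, while in the other 3 libraries Cd209d was above Cd209g. Cd209a stood at 60.5, 31.7, 109 and 107 CPM, and Cd209b at 44.4, 31.5, 51.7 and 60.2 CPM. The levels of Cd209a and Cd209b in CKO HFD did not differ beyond their counting error, and in the other libraries Cd209b was the lowest. Of all member UMIs in Lyve1 cells, Cd209f made up 40.2%, 41.3%, 38.9% and 33.6%, and Cd209d 29.9%, 28.0%, 20.6% and 27.3%.

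Read cell by cell at equal depth, Cd209f was found in 20.4% (15.6 to 25.9) of Lyve1 cells for WT HFD, 23.1% (20.6 to 25.7) for CKO HFD, 40.4% (35.7 to 45.2) for WT ND and 29.3% (26.0 to 32.8) for CKO ND. Without thinning the shares were 31.6%, 30.6%, 57.7% and 46.6%, with a median of 14562, 3723, 4182 and 4062 UMIs per cell. Cd209d was found in 23.2%, 22.2%, 27.1% and 27.1% of the thinned cells. In WT HFD the share for Cd209d lay above that for Cd209f while the CPM had the opposite order, so no order of the 2 genes is read from the shares there. Relative to the other cells of the same library, the share with Cd209f in Lyve1 cells was 13.9 times (9.43 to 20.5) as high in WT HFD, 5.36 times (4.5 to 6.38) for CKO HFD, 4.07 times (3.33 to 4.97) for WT ND and 4.28 times (3.49 to 5.24) for CKO ND. At least 1 of the 5 genes was detected in 37.6%, 40.5%, 62.5% and 53.2% of Lyve1 cells.

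**Figure D1:**
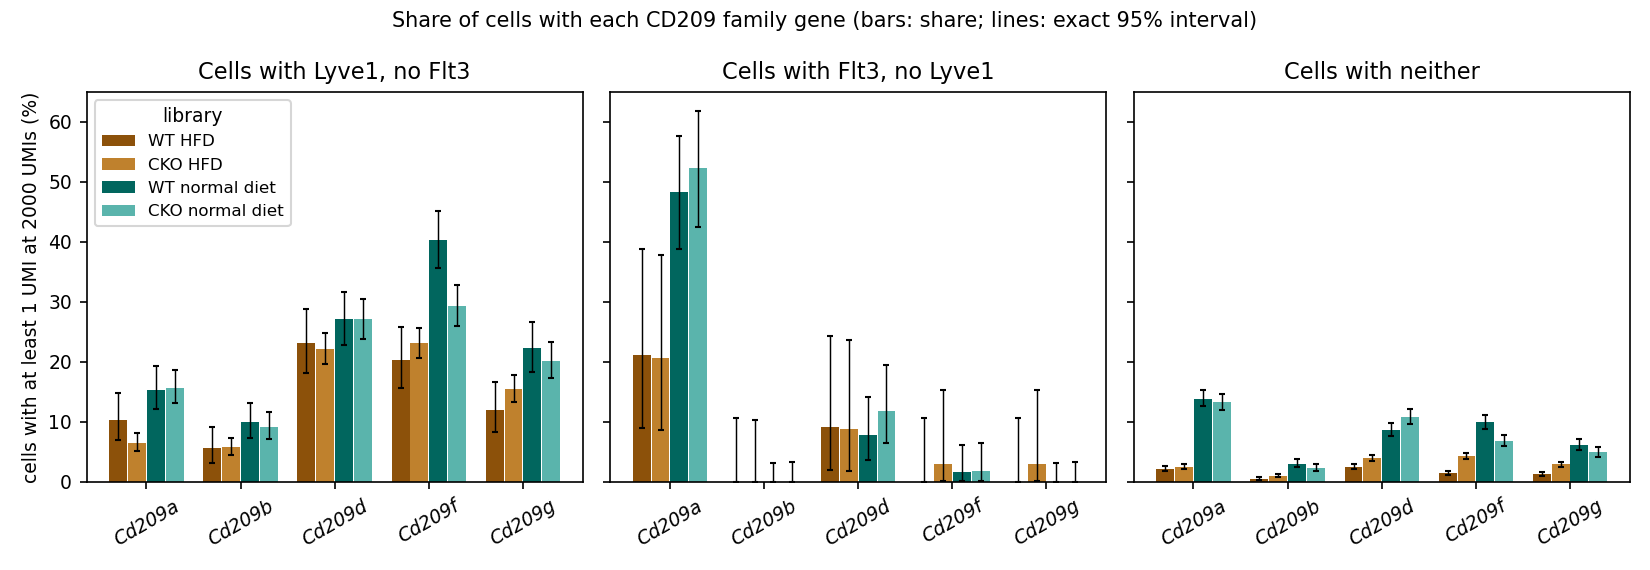
Share of cells (percent, vertical axis) with at least 1 UMI of each CD209 family gene (horizontal axis) after thinning to 2000 UMIs, in Lyve1 cells, Flt3 cells and cells with neither gene, with bars coloured by library and lines for exact 95% intervals. Cd209f reaches 40.4% of Lyve1 cells in WT ND, whereas Cd209a reaches 52.3% of Flt3 cells in CKO ND, where the bars of Cd209b, Cd209f and Cd209g lie at or near 0.

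Flt3 cells carried mainly Cd209a. Its level was 296 CPM (251 to 347) for WT HFD, 219 CPM (157 to 297) for CKO HFD, 522 CPM (472 to 576) for WT ND and 549 CPM (499 to 603) for CKO ND. The 2 ND libraries lay above the 2 HFD libraries, with no overlap of the intervals. The UMIs of the 2 HFD libraries came from 13 and 9 cells, which these intervals do not take into account. At equal depth 7 of 33 (21.2%), 7 of 34 (20.6%), 56 of 116 (48.3%) and 57 of 109 (52.3%) Flt3 cells had a Cd209a UMI. Their intervals were 8.98 to 38.9, 8.70 to 37.9, 38.9 to 57.7 and 42.5 to 61.9, so those of the 2 WT libraries meet. Without thinning the shares were 39.4%, 26.5%, 58.6% and 75.2%, with a median of 14212, 4849, 5380.5 and 6089 UMIs per cell. The thinned share was 9.70 times (3.8 to 20.8), 8.22 times (3.25 to 17.3), 3.47 times (2.57 to 4.62) and 3.94 times (2.93 to 5.23) that of the other cells. Cd209d came next, at 128, 112, 64.1 and 84.8 CPM, and Cd209a and Cd209d together left little to the rest. Cd209a made up 69.4%, 63.1%, 86.4% and 82.7% of the member UMIs of Flt3 cells, and Cd209d 30.1%, 32.3%, 10.6% and 12.8%.

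Cd209b, Cd209f and Cd209g were near the limit of detection in Flt3 cells. Cd209f had 1, 1, 4 and 19 UMIs there, or 1.95, 5.33, 5.24 and 24.0 CPM, and Cd209g had 0, 2, 2 and 2 UMIs. Cd209b had 0, 0, 8 and 3 UMIs, and the 0 of WT HFD and CKO HFD allow up to 5.84 and 16 CPM. Cd209f was thus 139 times (24.9 to 5485) as high in Lyve1 cells as in Flt3 cells in WT HFD, 44.5 times (7.97 to 1759) for CKO HFD, 60.0 times (23.3 to 221) for WT ND and 10.5 times (6.66 to 17.4) for CKO ND. Cd209a went the other way, with Lyve1 cells at 0.205, 0.145, 0.209 and 0.195 times the Flt3 level. With a gene counted as past 1.5-fold by its ratio of (CPM + 1), 4 members were higher and 1 lower in Lyve1 cells of WT HFD, where 30.8% of all tested genes were higher and 20.3% lower. In WT ND the members split 4 and 1 against 26.0% and 17.9% of all genes, and in CKO ND 4 and 1 against 27.6% and 15%. In CKO HFD 3 were higher and 1 lower, against 30.7% and 24.8%, since Cd209d differed by less than 1.5-fold (1.44 times, 0.934 to 2.33). Both gates were large contrasts for the whole genome, so the counts alone say little, while the opposite directions of Cd209a and Cd209f were the same in all 4 libraries.

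Cd209d was detected in both cell kinds, as was Cd209a, but in few Flt3 cells. At equal depth 9.09%, 8.82%, 7.76% and 11.9% of Flt3 cells had a Cd209d UMI, the 2 HFD shares being at the limit of 3 cells. These were 3.59, 2.23, 0.890 and 1.10 times the shares of other cells, with intervals that hold 1. Without thinning, 6 Flt3 cells in each HFD library had a Cd209d UMI. The level of Cd209d in Lyve1 cells was 1.56 times (1.21 to 2.04) that in Flt3 cells in WT HFD, 2.59 times (1.92 to 3.55) for WT ND and 2.41 times (1.88 to 3.14) for CKO ND. In single Flt3 cells it was found with Cd209a: 3 of 3 cells with Cd209d in WT HFD, 1 of 3 in CKO HFD, 9 of 9 in WT ND and 11 of 13 in CKO ND also had a Cd209a UMI. Independence would give 0.636, 0.618, 4.34 and 6.80 such cells. In single Lyve1 cells Cd209d was found with Cd209a in 20, 41, 29 and 52 cells, where independence would give 6.03, 15.5, 17.6 and 30.9. It was found with Cd209f in 28, 110, 63 and 102 cells, where independence would give 11.8, 55.0, 46.0 and 57.8. Such an excess also arises where cells of a gate differ in kind, and no cause was tested.

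Outside both gates Cd209a was the leading paralogue in both ND libraries, and Cd209f was in CKO HFD. In WT HFD there were 0.932 (0.862 to 1.01) Cd209a UMIs per Cd209d UMI. These 2 genes did not differ beyond their counting error, so no leader is named for WT HFD. In the other cells Cd209a stood at 17.7 CPM (16.7 to 18.7) for WT HFD and 20.2 CPM (18.7 to 21.7) for CKO HFD, and at 129 CPM (124 to 134) and 131 CPM (126 to 136) in WT and CKO ND. At equal depth 2.19% and 2.51% of these cells had a Cd209a UMI under HFD, and 13.9% and 13.3% under ND. Under ND Lyve1 cells stood at 0.846 times (0.746 to 0.956) the Cd209a level of other cells in WT and 0.817 times (0.737 to 0.905) in CKO, but their shares of cells were 1.11 and 1.18 times as high, so no order is read. Cd209f stood at 14.7, 39.3, 69.8 and 47.1 CPM in other cells, and Cd209d at 19.0, 29.5, 55.0 and 71.4 CPM. Cd209a therefore made up 42.5% and 45.8% of the member UMIs of other cells under ND, against 28.3% and 17.9% under HFD.

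Free RNA in the droplets can put UMIs into cells that do not make the gene, so cells of 2 kinds that should lack the family were read in the same way. Lymphoid cells were those with at least 3 UMIs of T, NK and B cell genes and at most 2 of C1qa, C1qb and C1qc. Of these, 0 of 18, 0 of 24, 0 of 26 and 0 of 16 had a UMI of any member, which allows shares of up to 16.7%, 12.5%, 11.5% and 18.8%. The limit on the C1q genes leaves out cells with more macrophage RNA, so these counts can understate the background. Among fibroblast cells, marked by collagen genes, Cd209f was found in 1 of 47 (2.13%) for WT HFD and 2 of 56 (3.57%) for CKO HFD, and the other 4 members in none. These 0 counts allow shares of up to 6.38% and 5.36%, so that the shares in the other cells of the HFD libraries (0.535% to 4.31%) cannot be told from background by this measure. The fibroblast cells had median depths of 16118 and 3698 UMIs, near the 14603 and 4458 of the other cells. Their levels were also imprecise: in CKO HFD Cd209f stood at 35.2 CPM (15.2 to 69.3, 8 UMIs) in fibroblast cells and 39.3 CPM in other cells. With 2 and 3 fibroblast cells the ND libraries give no such reading. A tighter one, for Cd209f alone and chosen after its values were seen, came from large clusters of macrophages and monocytes with few Cd209f UMIs. Picked for low values, they give no independent background. Cd209a was higher in clusters 2 and 19, as given below, so this reading does not cover it. Cd209f stood at 1.11 CPM (0.709 to 1.65) in the 1163 WT HFD cells of cluster 0, at 0.517 CPM (0.107 to 1.51) in the 1105 CKO HFD cells of cluster 2, and at 1.67 CPM in 431 WT ND cells and 0.939 CPM in 376 CKO ND cells of cluster 19.

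All kept cells were grouped into 23 clusters with the Cd209 genes left out of the clustering. The 5 paralogues were unevenly spread over them. Clusters 8, 12 and 15 bore the resident-like name by markers such as Lyve1, Folr2, Gas6 and Cbr2, and each came mostly from different libraries: 664 of 737 cells of cluster 8 from WT HFD, 1039 of 1073 cells of cluster 15 from CKO HFD, and 1099 and 1571 of 2759 cells of cluster 12 from the ND libraries. Cd209f stood at 179 CPM (171 to 188) in the WT HFD cells of cluster 8, at 378 CPM (359 to 397) in the CKO HFD cells of cluster 15, and at 319.5 CPM in WT ND and 242 CPM in CKO ND cells of cluster 12. Those 3 clusters held 87.9%, 54.2%, 53.2% and 61.6% of the Cd209f UMIs of the 4 libraries. They held 15.6%, 13.1%, 29.9% and 37.0% of the cells. These shares rest on the clustering: at resolution 0.5 resident-like clusters held 10.2% in WT HFD and 90.0% in CKO HFD, which turns the order of those libraries. The clusters of that name then held 3.74% and 54.3% of the cells. Cd209b was found in clusters 8, 12 and 15 as well, with 86.4%, 52.2%, 58.7% and 59.5% of its UMIs there. In CKO HFD a further 20.3% of Cd209f UMIs lay in 2731 cells of cluster 10, an unnamed cluster led by Ccl12, Mt1 and Ccl7. Its Cd209f level of 61.1 CPM (56.2 to 66.3) was near the 65.6 CPM of all 8731 cells of that library. That part of the UMIs thus goes with the size of the cluster and not with a raised level.

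Dendritic-like cluster 16, led by Klrb1b, Flt3 and Jaml, had the highest Cd209a level of all clusters. Over the 4 libraries Cd209a stood at 665 CPM in it, Cd209d at 139 CPM and Cd209f at 3.95 CPM. By library Cd209a was at 480.0 CPM (437 to 526) in 62 WT HFD cells, 307 CPM (262 to 357) in 93 CKO HFD cells, 786 CPM (737 to 837) in 210 WT ND cells and 828 CPM (781 to 879) in 220 CKO ND cells. Cd209d did not follow that order, at 145, 179.9, 102 and 151 CPM. No Cd209f UMI was found in its WT HFD cells, which allows up to 3.19 CPM. The cluster held 29.5% of all Cd209a UMIs.

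Another cluster with Flt3 had little of the gene. Cluster 20, with the name mature dendritic-like from the migration receptor gene Ccr7 and the genes Ccl22, Fscn1 and Il4i1, had Flt3 at 216 CPM and Zbtb46, a transcription factor of conventional dendritic cells, at 193 CPM, against 172 and 124 CPM in cluster 16. Its Cd209a level was 11.6 CPM (4.25 to 25.2, 6 UMIs in 75 cells), and its Cd209d level was 1.93 CPM (0.0488 to 10.7, 1 UMI). Among Flt3 cells at equal depth, 1 of 29 in cluster 20 (3.45%, 0.0873 to 17.8) and 93 of 160 in cluster 16 (58.1%, 50.1 to 65.9) had a Cd209a UMI. Cells from HFD libraries in cluster 20 numbered 13, 6 of WT and 7 of CKO, so that no diet comparison was made.

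Much of the remaining Cd209a lay in cells led by the lysozyme gene Lyz1. Cluster 9, led by Cd226 and Lyz1, had Cd209a at 124 CPM (113 to 135) in 462 WT ND cells and 113 CPM (103 to 124) in 506 CKO ND cells, and at 55.9 CPM in 123 WT and 57.5 CPM in 74 CKO cells from HFD. Its Cd209d level over all libraries was 34.6 CPM and its Cd209f level 2.08 CPM. C1qa, at 183 CPM, and Fcgr1, at 3.21 CPM, were low in cluster 9, as they were in cluster 16 (119 and 4.44 CPM). Cluster 14, led by Lyz1 and the immunoglobulin gene Igkc, carried all paralogues, with Cd209a at 154 CPM, Cd209f at 120.1 CPM and Cd209d at 93.2 CPM. In that cluster 11.7% of cells were among the highest doublet scores, against 0.0858% in cluster 9, and the part of doublets in its mixed profile was not tested. Clusters 14 and 9 held 19.7% and 11.9% of all Cd209a UMIs.

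The lipid-associated-like macrophages of obese fat carried little of the family. In the 1163 WT HFD cells of cluster 0, led by Gpnmb, Atp6v0d2 and Ctsl, the 5 members stood between 0.415 and 1.24 CPM. In the 1105 CKO HFD cells of cluster 2, led by AA467197, Arg1 and Mmp12, Cd209a stood at 10.3 CPM (7.89 to 13.3) and the other 4 between 0.172 and 3.62 CPM. Non-classical monocyte-like cluster 19 had Cd209a at 37.6 and 41.3 CPM in WT and CKO ND, and Cd209b, Cd209f and Cd209g between 0.835 and 1.88 CPM.

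**Figure D2:**
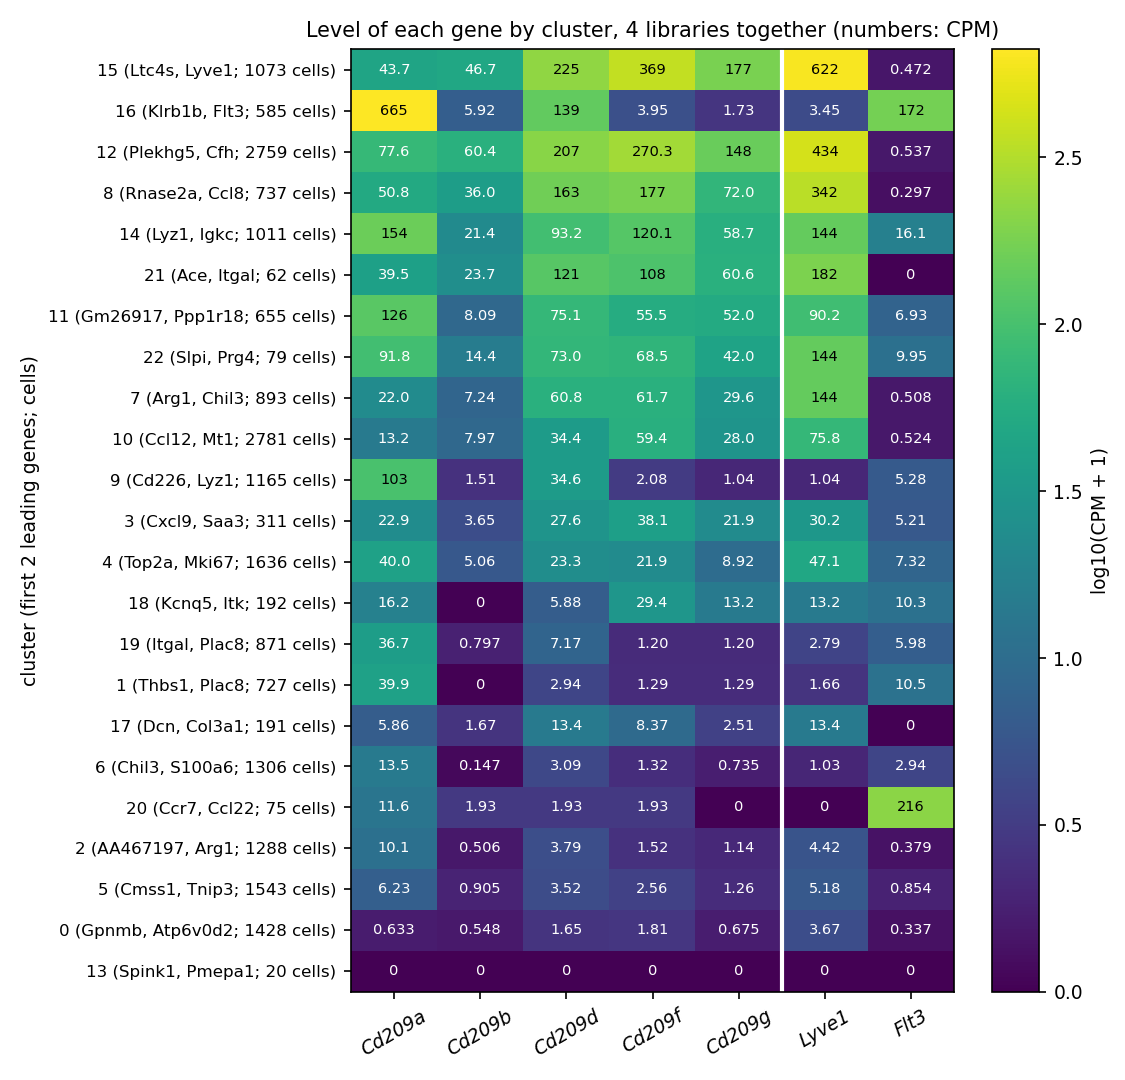
Level of the 5 CD209 family genes and of Lyve1 and Flt3 (columns) in each of the 23 clusters over the 4 libraries together (rows, with 2 leading genes and the number of cells), coloured by log10(CPM + 1) with the CPM printed in each field. Cd209a is highest in cluster 16 at 665 CPM, and Cd209f in cluster 15 at 369 CPM, while cluster 20 has Flt3 at 216 CPM and Cd209a at 11.6 CPM.

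Cd209f and Cd209g behaved as a pair. Over all kept cells there were 2.35, 2.09, 1.89 and 1.95 Cd209f UMIs per Cd209g UMI in WT HFD, CKO HFD, WT ND and CKO ND. In Lyve1 cells the ratio was 2.83 (2.52 to 3.18) for WT HFD and 2.10, 1.89 and 2.00 in the others, and in the 9 clusters with at least 100 UMIs of the pair it ran from 1.63 to 2.45. Over the same 9 clusters the Cd209d UMIs per Cd209f UMI ran from 0.578 in cluster 10 to 1.07 in cluster 4. Outside them this ratio reached 16.7 in cluster 9 and 35.2 in cluster 16, on 22 and 16 Cd209f UMIs. Those 2 clusters had too few UMIs of the pair for a ratio of Cd209f to Cd209g. At equal depth both genes of the pair were found in the same Lyve1 cell 21, 126, 56 and 90 times, where independence would give 6.12, 38.3, 38 and 43.1. Over 49 profiles, each a cluster within a library of at least 50 cells, the Pearson correlation of log2(CPM + 10) was 0.96 for Cd209f with Cd209g, 0.84 for Cd209f with Cd209b, 0.67 for Cd209f with Cd209d, and 0.19 for Cd209f with Cd209a. For Cd209g with Cd209b it was 0.83. These correlations are descriptions, as profiles of a library share its preparation and depth.

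**Figure D3:**
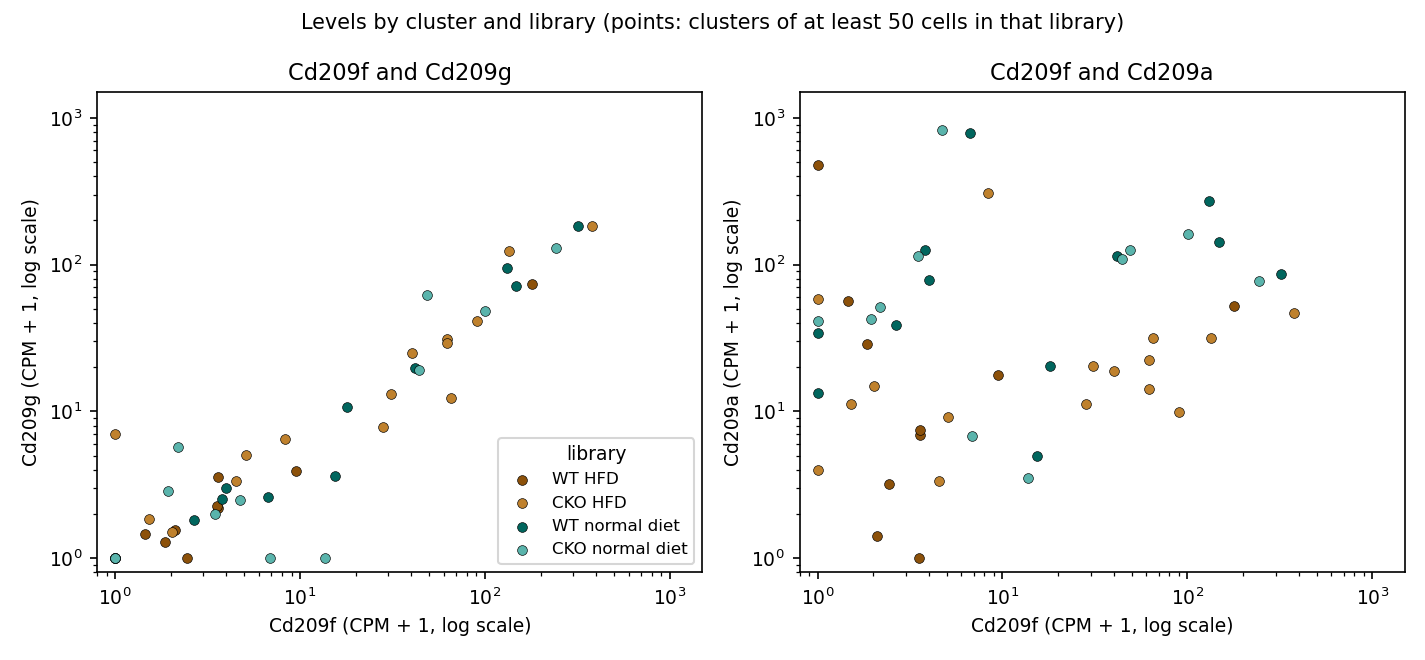
Levels of Cd209g (left, vertical axis) and Cd209a (right, vertical axis) against Cd209f (horizontal axes), all as CPM + 1 on log scales, with 1 point per cluster and library (49 points of at least 50 cells, coloured by library). Cd209g follows Cd209f along a line (r = 0.96 on log2(CPM + 10)), whereas Cd209a is high at both low and high Cd209f (r = 0.19).

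The 7 Cd209 genes lie within 394 kb of chromosome 8 (GRCm38, GENCODE M21 annotation), and no other annotated gene overlaps any of them. Cd209a (ENSMUSG00000031494) lies at chr8:3743397-3748984, Cd209d (ENSMUSG00000031495) at chr8:3871824-3878555 and Cd209b (ENSMUSG00000065987) at chr8:3917655-3926844, all on the minus strand. Cd209f (ENSMUSG00000051906, chr8:4102787-4105835, minus strand) and Cd209g (ENSMUSG00000079168, chr8:4134098-4137707, plus strand) are neighbours at the far end of the locus, 28.3 kb apart. The 300 bases around their RefSeq starts (GRCm38.p6) share a run of 180 identical bases. Between any other pair of the 7 genes (21 pairs in all) the longest shared run was 17 bases, for Cd209a and Cd209b. Both promoters are printed 5′ to 3′ with the shared run in capitals, since these 2 genes had the profiles most like each other within the family, and that of Cd209a is set beside them with the letters TTCCGG in capitals. Cd209f spans chr8:4105715-4106014 (minus strand), Cd209g chr8:4134486-4134785 (plus strand) and Cd209a chr8:3748935-3749234 (minus strand). The RefSeq start of Cd209g lies downstream of the start in GENCODE, so its window falls inside the gene as annotated there. The window of Cd209f also reaches past its GENCODE start at 4105835. Part of its shared run, with the letters TATAAA, thus lies inside the annotated gene.
Cd209f: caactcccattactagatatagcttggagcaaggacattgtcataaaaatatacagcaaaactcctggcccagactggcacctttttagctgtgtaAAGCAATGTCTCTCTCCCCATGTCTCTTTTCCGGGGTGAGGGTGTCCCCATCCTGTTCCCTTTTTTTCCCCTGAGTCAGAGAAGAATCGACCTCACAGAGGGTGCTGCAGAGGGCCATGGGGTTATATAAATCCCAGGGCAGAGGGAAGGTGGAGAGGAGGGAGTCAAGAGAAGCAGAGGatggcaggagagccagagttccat
Cd209g: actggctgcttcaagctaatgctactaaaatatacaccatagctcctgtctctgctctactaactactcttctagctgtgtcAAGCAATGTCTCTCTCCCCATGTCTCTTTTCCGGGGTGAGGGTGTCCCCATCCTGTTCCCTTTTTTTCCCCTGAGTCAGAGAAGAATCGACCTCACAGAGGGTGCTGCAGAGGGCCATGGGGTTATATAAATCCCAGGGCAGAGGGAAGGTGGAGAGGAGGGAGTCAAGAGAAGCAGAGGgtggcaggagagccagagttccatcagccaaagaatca
Cd209a: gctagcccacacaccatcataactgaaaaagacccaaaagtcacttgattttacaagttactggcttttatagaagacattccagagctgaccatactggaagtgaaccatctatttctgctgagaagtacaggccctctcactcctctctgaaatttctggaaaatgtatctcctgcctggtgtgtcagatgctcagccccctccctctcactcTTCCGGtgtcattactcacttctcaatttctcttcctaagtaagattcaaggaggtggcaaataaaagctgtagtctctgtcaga

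Letters of 3 known motifs were searched on both strands, and were chosen after the sequences had been seen. TGAGTCA, the letters of an AP-1 site, occurred in the promoters of Cd209f and Cd209g and in no other Cd209 promoter, against 5.19% of 32544 RefSeq promoters of the same length. TATAAA occurred on the forward strand of these 2 genes and on the reverse strand of Cd209a, against 13.6% of promoters. TTCCGG, the letters of an ETS site, occurred in Cd209a, Cd209b, Cd209e, Cd209f and Cd209g, against 15%. In Cd209f and Cd209g the 3 motifs do not overlap one another, and a match is a description of letters, not of a bound site. The 2 messages can be told apart by 3′ reads: 38.2% of the 50-base windows of the Cd209f transcript also occur in Cd209g, but 0 of 451 windows in its last 500 bases do. The treatment of reads that map to both genes is not given here.

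Under HFD, Cd209d, Cd209f and Cd209g stood higher in CKO than in WT over all kept cells, whereas within Lyve1 cells their ratios lay between 0.803 and 1.18. Cd209f was at 65.6 CPM in CKO HFD and 28.7 CPM in WT HFD, a ratio of 2.29 (2.16 to 2.42). For Cd209g the levels were 31.4 and 12.2 CPM, a ratio of 2.57 (2.36 to 2.80), for Cd209d 47.6 and 29.9 CPM (1.59, 1.5 to 1.69), and for Cd209b 8.70 and 5.94 CPM (1.46, 1.27 to 1.69). Cd209a was at 22.6 and 21.9 CPM, with a ratio of 1.03 (0.949 to 1.11). So 3 of 5 members were past 1.5-fold higher and 0 lower, where 4.95% of all 9388 tested genes were higher and 18.4% lower. TMM scaling raised every log2 ratio of this comparison by 0.21, to 1.19 for Cd209a and 2.65 for Cd209f as ratios.

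Within Lyve1 cells the same comparison gave 0.880 (0.811 to 0.955) for Cd209f, 1.18 (1.04 to 1.35) for Cd209g, 0.803 (0.728 to 0.884) for Cd209d, 0.710 (0.572 to 0.880) for Cd209b and 0.524 (0.428 to 0.640) for Cd209a. Without TMM scaling Cd209g was the one member with a ratio above 1 there. Lyve1 cells made up 14.0% (13.3 to 14.8) of CKO HFD and 5.45% (4.82 to 6.15) of WT HFD, and different clusters hold most of the resident-like cells of the 2 libraries (8 in WT and 15 in CKO). The scaling shift is larger than the distance of Cd209f from a ratio of 1 within Lyve1 cells, so no direction is claimed for it there. With Lyve1, Flt3 and other cells weighted alike in both libraries, the ratio was 1.35 for Cd209f, 1.63 for Cd209g, 1.08 for Cd209d, 0.951 for Cd209b and 0.895 for Cd209a, so that 1 member in place of 3 was past 1.5-fold and Cd209b changed direction. Within other cells Cd209f stayed higher in CKO HFD, at 2.67 times (2.46 to 2.90). So did Cd209g at 2.50 times, Cd209d at 1.56, Cd209b at 1.40 and Cd209a at 1.14. Other cells include cells with Lyve1 that the gate missed. Lyve1 itself was 1.91 times (1.75 to 2.07) as high in the other cells of CKO HFD. The part of such missed cells in these ratios was not tested.

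Under ND Cd209d and the pair of Cd209f and Cd209g moved in opposite directions between genotypes. Cd209d was at 102 CPM in CKO and 73.4 CPM in WT, a ratio of 1.38 (1.30 to 1.47), while Cd209f was at 85.6 and 102 CPM (0.840, 0.791 to 0.892) and Cd209g at 44.0 and 53.8 CPM (0.817, 0.751 to 0.888). Cd209a had a ratio of 1.01 (0.959 to 1.06) and Cd209b of 1.13 (0.993 to 1.29). None of the 5 was past 1.5-fold, and few genes were: 0.531% of 9598 tested genes were higher and 0.656% lower. Within Lyve1 cells the ratio was 1.23 (1.10 to 1.38) for Cd209d, 0.80 (0.730 to 0.877) for Cd209f and 0.757 (0.666 to 0.861) for Cd209g, and within other cells 1.30, 0.675 and 0.666. In the cells of cluster 12 alone, Cd209d was at 222 CPM (209 to 235) in CKO and 193 CPM (179 to 208) in WT, and Cd209f at 242 CPM (229 to 256) and 319.5 CPM (302 to 338). There were thus 0.528 (0.470 to 0.593) Cd209d UMIs per Cd209f UMI in Lyve1 cells of WT ND and 0.812 (0.741 to 0.889) in those of CKO ND. A ratio of 2 genes within the same cells does not depend on the scaling of the libraries.

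Over all kept cells, HFD went with lower levels of all 5 members in WT and of Cd209a, Cd209b and Cd209d in CKO, most for Cd209a. Cd209a was at 21.9 CPM in WT HFD and 140.4 CPM in WT ND, a ratio of 0.156 (0.147 to 0.166), and at 22.6 and 141 CPM in the CKO libraries, a ratio of 0.160 (0.149 to 0.172). In WT the ratio was 0.227 for Cd209g, 0.281 for Cd209f, 0.316 for Cd209b and 0.407 for Cd209d. All 5 members were past 1.5-fold lower in WT, where 23.0% of tested genes were lower and 12.8% higher. In CKO 3 were lower and 0 higher, against 39.5% lower and 11.1% higher: beside Cd209a these were Cd209b at 0.409 and Cd209d at 0.469, while Cd209f stood at 0.766 (0.723 to 0.811) and Cd209g at 0.713. TMM scaling raised every log2 ratio by 0.25 in WT and by 0.49 in CKO, which turned Cd209f in CKO to 1.07 and Cd209g to 0.999, so that no direction is claimed for that pair in CKO. Under TMM Cd209a was still at 0.187 in WT and 0.224 in CKO.

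Within Lyve1 cells the diet ratios were nearer to 1. In WT they were 0.555 (0.467 to 0.660) for Cd209a, 0.574 (0.50 to 0.659) for Cd209g, 0.859 for Cd209f and Cd209b, and 1.21 (1.08 to 1.36) for Cd209d. In CKO they were 0.296 (0.247 to 0.355) for Cd209a, 0.524 for Cd209b, 0.789 (0.716 to 0.868) for Cd209d, 0.898 for Cd209g and 0.944 for Cd209f, the last with an interval that holds 1 (0.869 to 1.03). The scaling shift is larger than the distance from a ratio of 1 for Cd209f and Cd209b in WT and for Cd209d, Cd209f and Cd209g in CKO, so no direction is claimed for those. Within Flt3 cells Cd209a was at 0.566 (0.466 to 0.684) in WT and 0.398 (0.282 to 0.549) in CKO. Other markers differed beside it in Flt3 cells. The summed level of the 7 type 1 dendritic markers was 1640 CPM under HFD and 1152 CPM under ND in WT, with 6 genes higher, and 1483 and 937 CPM in CKO, with 5 higher. That of the 7 type 2 dendritic markers was 1245 and 1601 CPM in WT and 1115 and 1834 CPM in CKO, with 1 gene higher in each. For the 5 mature dendritic markers the sum was 432 and 1059 CPM in WT and 213 and 528 CPM in CKO. Again 1 gene was higher in each. Mature dendritic-like cluster 20 had little Cd209a. C1qa was at 751 and 169 CPM in WT and 875 and 378 CPM in CKO. The part of this make-up in the Cd209a difference was not tested. Cd209a was lower under HFD in Lyve1, Flt3 and other cells of both genotypes. The libraries also differed in make-up, with Flt3 cells at 0.720% and 0.444% under HFD and 3.83% and 3.13% under ND.

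**Figure D4:**
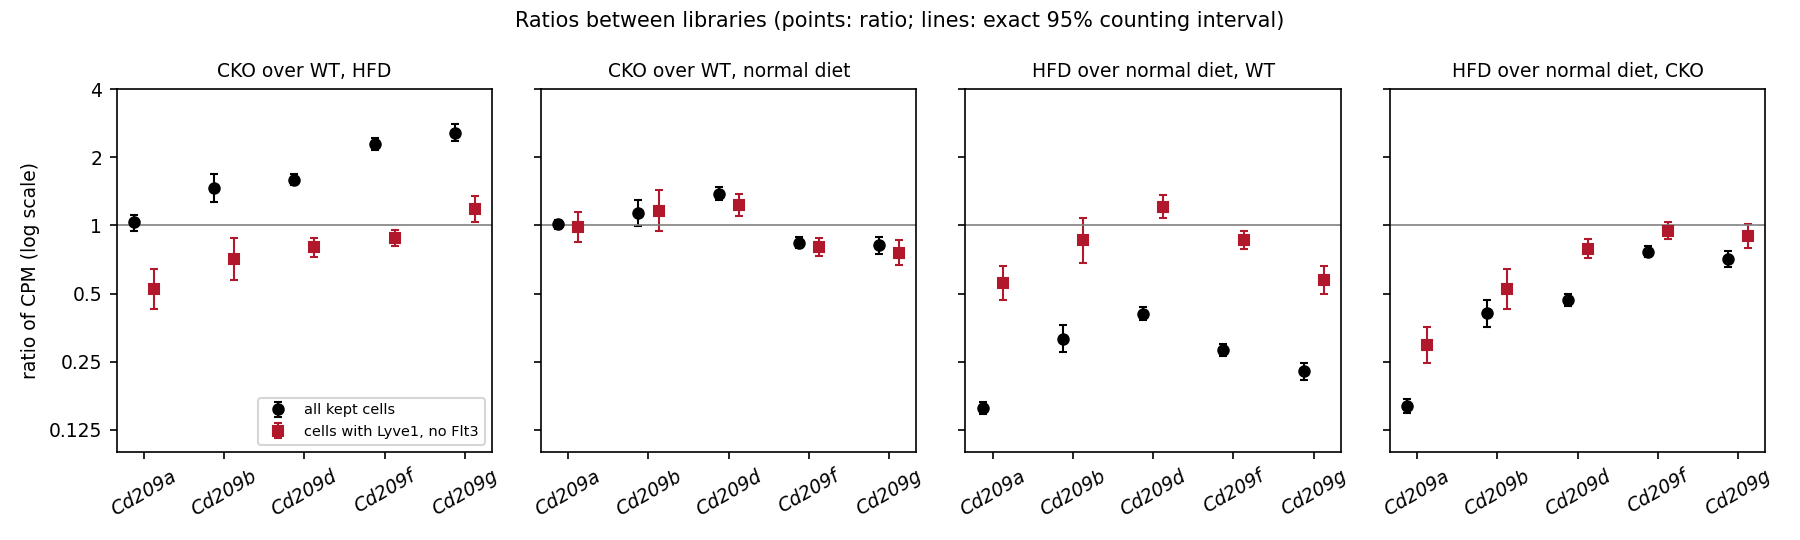
Ratio of CPM between 2 libraries (vertical axis, log scale) for each CD209 family gene (horizontal axis) in the 4 comparisons, over all kept cells (black) and within Lyve1 cells (red), with lines for exact 95% counting intervals. Cd209f is 2.29 times as high in CKO as in WT under HFD over all kept cells and 0.880 times within Lyve1 cells, and Cd209a is lowest of the 5 in both diet comparisons.

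Other C-type lectins split between the 2 cell kinds as well. The list of 32 receptors was drawn up with earlier results of these data known, and 31 were in the matrices. Between 22 and 24 of them passed the level of 5 CPM in Lyve1 or Flt3 cells of a library. In Lyve1 over Flt3 cells, 7 were past 1.5-fold higher and 9 lower in WT HFD, 13 and 7 in CKO HFD, 12 and 7 in WT ND, and 10 and 6 in CKO ND. Over all genes 30.8%, 30.7%, 26.0% and 27.6% were higher and 20.3%, 24.8%, 17.9% and 15% lower, so that the share higher in WT HFD was near the background. The median log2 ratio of the list was -0.15, 0.74, 0.60 and 0.53, beside 0.12, 0.06, 0.11 and 0.16 over all genes. Mrc1, the mannose receptor of macrophages, stood at 2665, 1616, 2429 and 2468 CPM in Lyve1 cells and 615, 464, 310.3 and 614 CPM in Flt3 cells. Colec12, a scavenger receptor with a lectin domain, differed between the diets within Lyve1 cells, at 25.6 and 22.3 CPM in WT and CKO under HFD and 110.5 and 136 CPM under ND, with 0 to 3 UMIs in Flt3 cells. Cd93 was higher in Lyve1 cells too, at 109 to 152 CPM against 27.5 to 58.4 CPM. The same held for Cd302, at 116 to 199 CPM against 51.1 to 85.3 CPM.

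With Cd209a on the side of Flt3 cells stood Klrb1b, a gene of the NK receptor cluster, and Clec9a, the dead-cell receptor of type 1 dendritic cells. Klrb1b was at 29.2, 48.0, 179 and 194 CPM in Flt3 cells and at 0.189 to 11.9 CPM in Lyve1 cells. Clec9a was at 62.2, 42.7, 38 and 13.9 CPM in Flt3 cells and at 0.377 to 2.25 CPM in Lyve1 cells, on 8 to 32 UMIs. Clec10a and Mgl2, the galactose-binding lectins often used with Cd209a to name type 2 dendritic cells, did not single out Flt3 cells: Clec10a was at 391 to 743 CPM in Lyve1 cells and 192 to 478 CPM in Flt3 cells, and Mgl2 at 644 to 1278 CPM and 442 to 801 CPM. Clec4a1, Clec4a2 and Clec4a3, related receptors of myeloid cells, were at 166 to 277 CPM in Lyve1 cells and 83.5 to 206 CPM in Flt3 cells. Clec4b1 was at 104 to 179 CPM in Lyve1 cells and 165 to 245 CPM in Flt3 cells, Clec12a at 75.6 to 159.5 CPM and 74.7 to 121 CPM, and Clec2d at 117 to 206 CPM and 85.3 to 123 CPM.

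Of the diet comparisons on this list, 3 of 18 receptors above the level were past 1.5-fold higher and 6 lower under HFD in WT, and 5 and 5 in CKO. Over all genes 12.8% were higher and 23.0% lower in WT, and 11.1% and 39.5% in CKO. The list's median log2 ratio was 0.09 in WT and 0.49 in CKO, beside -0.16 and -0.40 over all genes. Like Cd209a, Klrb1b was lower, at 2.78 against 30.6 CPM in WT and 2.35 against 28.3 CPM in CKO, and so were Colec12 (9.47 against 34.3 CPM, and 8.72 against 55.1 CPM) and Clec10a (209 against 403 CPM, and 217 against 407 CPM). Mgl2 went the other way, at 643 against 444 CPM in WT and 877 against 596 CPM in CKO, differences under 1.5-fold. In CKO over WT the list had 2 of 16 higher and 1 lower under HFD, and 1 of 18 higher and 2 lower under ND, beside 4.95% and 18.4% of all genes under HFD and 0.531% and 0.656% under ND.

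Among the signalling partners of such receptors, Lsp1, an actin-binding protein that couples human DC-SIGN to its signalling complex, stood higher in Flt3 cells. It was at 1025, 901, 999 and 1031 CPM there and at 159.6, 204, 337 and 318 CPM in Lyve1 cells. Fcer1g, the adaptor of several C-type lectins, was at 1191 to 2139 CPM in Flt3 cells and 1487 to 2673 CPM in Lyve1 cells. The kinase gene Syk was at 123 to 348 CPM in Flt3 cells and 174 to 271 CPM in Lyve1 cells, and the kinase gene Prkcd at 167 to 296 CPM and 113 to 267 CPM. Malt1, a protease of the pathway to NF-kB, was at 128 to 285 CPM in Flt3 cells and 30.5 to 177 CPM in Lyve1 cells, and its partner Bcl10 at 66.1 to 101 CPM and 90.0 to 147 CPM. Of the 9 partners, 2, 2, 3 and 3 were past 1.5-fold lower in Lyve1 cells and 1, 2, 1 and 0 higher in WT HFD, CKO HFD, WT ND and CKO ND. Over all genes 15% to 24.8% were lower and 26.0% to 30.8% higher.

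The genes whose levels over the 49 profiles were most like each paralogue were sought by Pearson correlation of log2(CPM + 10). For Cd209f they were the ficolin gene Fcna (0.92), Bmp2 (0.91), Lyve1 (0.91), the leukotriene C4 synthase gene Ltc4s (0.90) and Pdgfc (0.89). For Cd209g they were Fcna (0.92), Bmp2 (0.90), Pla2g2d (0.89), Lyve1 (0.88) and Plekhg5 (0.88). For Cd209b they were Plekhg5, Tmod1 and the histamine receptor gene Hrh1 (each 0.87), then Pdgfc and Fcna (each 0.86). Cd209d came closest to P3h2 and Hrh1 (each 0.85), the phosphatidylserine receptor gene Timd4 (0.83), the haemoglobin scavenger receptor gene Cd163 (0.82) and Kmo (0.81). Cd209a came closest to Hepacam2 (0.88), Strip2 and Kmo (each 0.84) and Dpy19l1 (0.81). Kmo, a gene of the type 2 dendritic list, was thus among the closest to both Cd209a and Cd209d, and no gene was shared by the lists of Cd209a and Cd209f.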

How the data were processed

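The authors deposited 1 filtered matrix of UMI counts per library, made with Cell Ranger 7.0.0 per the file headers; GRCm38 is named in the submitters' processing notes. The use of intronic reads is not given in these sources. From these counts, cells were kept from 500 UMIs and 300 genes upwards, with mitochondrial UMIs up to 10%, 4650, 8731, 3705 and 4302 per library, with 21829741 to 74879066 UMIs per library before filtering. Scrublet's automatic threshold called 0 doublets in each library and so did not work; doublets were kept, and removal of the highest scores is an alternative.

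Each cell was thinned to 2000 UMIs without replacement to read shares. Intervals are exact 95%: Clopper-Pearson for shares, Poisson for CPM and conditional binomial for ratios. UMIs of 0 are given with a limit of 3 counts. Genes that reached 5 CPM in either library were compared by the ratio of (CPM + 1). Clusters came from 2000 variable genes without Cd209 genes, 30 principal components, 15 neighbours and Leiden resolution 1 (scanpy 1.11.5), and were named from marker lists; a name needed at least 3 detected markers. They were rebuilt here and are not the authors' annotation. TMM factors came from edgeR 4.0.16, with no edgeR test. Scripts were tested on simulated data.

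Named genes were the 5 members, list lectins with at least 50 CPM in 1 gate of 1 library, the 5 genes most like each member, the marker genes and Prdm1. The members, gene lists and gates were chosen with earlier results of these data known. The alternatives changed the thinning depth, gates, cell filters, doublets, scaling, weighting and cluster resolution. Values of 2 of the genes under the naming rule are not reported here.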

Additional observations from a re-analysis of the deposited data

Results flagged for a closer look

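Some ratios pointed in opposite directions under the 2 diets or in the 2 genotypes, with counting intervals on either side of 1. With 1 library per group, none of these differences was tested. Over all kept cells, the ratio of CKO to WT for Cd209f stood at 2.29 (2.16 to 2.42) on HFD but at 0.840 (0.791 to 0.892) under ND. Cd209g was 2.57 (2.36 to 2.80) and 0.817 (0.751 to 0.888). Within Lyve1 cells Cd209g kept that pattern, at 1.18 (1.04 to 1.35) and 0.757 (0.666 to 0.861). Cd209d had the opposite pattern within Lyve1 cells, at 0.803 (0.728 to 0.884) under HFD and 1.23 (1.10 to 1.38) under ND. For the diet, Cd209d within Lyve1 cells was 1.21 (1.08 to 1.36) in HFD over ND of WT and 0.789 (0.716 to 0.868) in CKO; the scaling shift of the CKO comparison, 0.49 on the log2 scale, is larger than the distance of that last ratio from 1.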

How the results depend on the processing

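Of 136 values of leading results under other settings, 114 moved by less than the main counting interval or, for counts, stayed within 1.5 times. Another 20 moved further, and 2, the values of 0 given below, changed direction. Of 440 values of single shares and ratios, 320 stayed within the main interval, 118 moved past it and 2 changed direction. The share with Cd209f in Lyve1 over other cells was 25.6 times in WT HFD and 6.65 times in CKO HFD with the gate read from all UMIs, 6.94 times in CKO HFD at 4000 UMIs, and 6.76 times in CKO HFD and 5.30 times in CKO ND with a gate of at least 2 UMIs. The share with Cd209a in Flt3 over other cells was 0 in WT HFD (0 of 4 cells) and 20 times in CKO HFD (1 of 2 cells) with at least 2 UMIs, 0 in CKO HFD at 1000 UMIs (0 of 20 cells), and 5.55 times in CKO ND with the gate read from all UMIs; the values of 0 rest on these few cells. With gates weighted alike, 1 member was past 1.5-fold higher in CKO over WT under HFD, and Cd209b turned to 0.951. By thinned share 5 members were past 1.5-fold lower in HFD over ND of CKO, and TMM turned Cd209f there to 1.07. At resolution 0.5 the part of Cd209f UMIs in resident-like clusters was 10.2% in WT HFD and 90.0% in CKO HFD. Those clusters then held 3.74% and 54.3% of the cells. At resolution 2 the part was 72.1%, 48.1% and 58.0% in CKO HFD, WT ND and CKO ND. For Cd209a UMIs in dendritic-like clusters the part was 0 in all 4 libraries at resolution 0.5, where no cluster bore that name. At resolution 2 it was 22.5% in WT HFD and 0.208% in CKO HFD, where clusters of that name held 24 and 4 cells. Other causes were not tested. Leaving out a replicate was not possible with 1 library per group. No paired analysis was possible because each group has a single library and no test was made. The small number of Flt3 cells in the HFD libraries, 33 and 34, limits the precision of their shares.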

Other observations

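The remaining Cd209 genes of the matrices, Cd209c and Cd209e, were low. The Cd209c level under ND was highest in Flt3 cells, at 19.6 CPM (11 to 32.4) in WT and 41.8 CPM (28.7 to 58.7) in CKO, against 4.12 and 3.10 CPM in Lyve1 cells and 4.71 and 5.45 CPM in other cells. Flt3 cells held 15 and 33 Cd209c UMIs there and other cells 82 and 100. Over all kept cells it was at 0.712 and 0.353 CPM in WT and CKO under HFD and at 5.05 and 6.20 CPM under ND, the same order of diets as Cd209a. Cd209e was at 7.08, 11.3, 2.25 and 5.01 CPM in Lyve1 cells of the 4 libraries. Unlike that of Cd209a, Cd209b and Cd209d, its level over all kept cells was higher under HFD than under ND in CKO. It was at 4.32 against 2.33 CPM there (1.86 times, 1.37 to 2.55), and TMM scaling raises that log2 ratio by 0.49. In WT the ratio for Cd209e was 1.07 (0.753 to 1.54).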
